A study of Mus musculus with 6 samples.

Results

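AP-1 and immediate early genes were followed in cultured synovial fibroblasts (SFs) given amisulpride. The set held 10 genes, taken by gene name from the 49548 genes of the deposited table: the Fos family members Fos, Fosb, Fosl1 and Fosl2, the Jun family members Jun, Junb and Jund, and the stimulus-responsive genes Egr1, Ier2 and Ier3. All 10 had a value above 0 in every library and passed the filter on low values, which left 12614 genes for testing. SFs are the connective tissue cells of the joint lining. They came from ankle joints of 8-week-old hTNFtg mice on a CBA C57BL/6J background, which carry a human TNF transgene and develop destructive polyarthritis. The joints were digested with collagenase, and CD45+ (leukocyte) cells were depleted at passage 1. The 3 untreated libraries and the 3 libraries of cells given 500 μM amisulpride for 48 hours shared this genotype, and no wild-type library was analysed here. Amisulpride is an antipsychotic drug known as an antagonist of dopamine receptors. The labels give the controls as untreated, whereas the methods of the study speak of vehicle.

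AP-1 is a dimeric transcription factor. Fos proteins cannot pair with each other and need a Jun partner, whereas Jun proteins can also pair among themselves, and the dimers bind a short palindromic element in promoters and enhancers. Several of the set, Fos, Fosb, Junb, Egr1 and Ier2 among them, belong to the immediate early genes. Growth factors, serum and cytokines switch these genes on within minutes without new protein synthesis, and their transcripts decay quickly. In SFs, TNF and IL-1 activate AP-1 through mitogen-activated protein (MAP) kinases, and AP-1 drives metalloproteinase and chemokine genes in the arthritic joint.

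The promoters of Fos, Fosb and Junb are printed because these 3 held the cAMP-responsive half-site TGACG, among the 7 members listed in the RefSeq promoter table of build GRCm38.p6 (Fos, Fosb, Fosl2, Jun, Junb, Jund and Ier3). Each window runs 5′ to 3′ on the strand of the gene, from 250 bases before to 50 bases after the RefSeq start. Capitals mark TGACG, the TATA box TATAAA and the EGR-type site GCGNGGGCG. The windows are chr12:85473640-85473939 on the plus strand for Fos, chr7:19309996-19310295 on the minus strand for Fosb and chr8:84978699-84978998 on the minus strand for Junb.
Fos: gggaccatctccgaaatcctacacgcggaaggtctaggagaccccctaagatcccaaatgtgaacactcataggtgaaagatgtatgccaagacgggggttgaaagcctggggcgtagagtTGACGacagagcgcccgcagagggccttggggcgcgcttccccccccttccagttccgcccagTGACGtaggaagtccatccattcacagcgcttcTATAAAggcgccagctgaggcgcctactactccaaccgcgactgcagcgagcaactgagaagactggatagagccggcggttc
Fosb: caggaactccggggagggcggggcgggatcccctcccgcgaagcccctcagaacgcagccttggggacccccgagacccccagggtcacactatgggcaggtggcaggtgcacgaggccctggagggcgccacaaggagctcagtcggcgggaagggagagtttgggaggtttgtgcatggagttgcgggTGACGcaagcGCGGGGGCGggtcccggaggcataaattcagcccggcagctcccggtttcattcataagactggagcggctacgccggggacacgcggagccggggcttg
Junb: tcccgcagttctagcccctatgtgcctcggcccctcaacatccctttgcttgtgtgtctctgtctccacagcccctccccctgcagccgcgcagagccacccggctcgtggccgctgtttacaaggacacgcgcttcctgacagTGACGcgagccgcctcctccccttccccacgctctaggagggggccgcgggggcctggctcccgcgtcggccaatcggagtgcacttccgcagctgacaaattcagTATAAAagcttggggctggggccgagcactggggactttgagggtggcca

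In these windows Fos held TGACG starting at positions -129 and -66 from its start site, Fosb at -60 and Junb at -106. Fosb also held an EGR-type site at -50, as did Fosl2 at -79. TATAAA began at -33 in Fos, and in Junb at the RefSeq start itself, which lies 30 bases upstream of the start in the deposited table. The AP-1 element itself (TGANTCA), the full cAMP-responsive element (TGACGTCA, which contains TGACG) and the serum-response CArG box were found in none of the 7 windows. This holds for the exact patterns only. Variants were not searched, such as TGACATCA, which the Jun window (not printed) holds. Both strands were searched. Sequence more than 250 bases upstream of the RefSeq starts, and the promoters of Fosl1, Egr1 and Ier2, were not searched, so elements there would be missed. The RefSeq starts of Jund and Fosl2 lie 1210 and 671 bases from the starts in the deposited table, so their windows do not sit at the start of the gene as counted. Of 27025 RefSeq promoters of the same length, 21.0% held TGACG, 5.55% the EGR-type site, 14.2% TATAAA, 7.93% TGANTCA, 1.88% TGACGTCA and 1.57% a CArG box. These matches are letters in a window, and binding was not measured.

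None of the 10 genes passed the thresholds of the study, which ask for a log2 fold change of 1 or more in size and an unadjusted p under 0.05, against 5.70% of all genes tested (719, of which 339 were higher and 380 lower with amisulpride). With limma and Benjamini-Hochberg adjustment over all genes, 0 of 10 had an adjusted p under 0.05, against 0.285% of genes, and the lowest adjusted p among them was 0.465. At an unadjusted p under 0.05 the count was also 0 of 10, against 10.9% of genes. The log2 fold changes were above 0 for 4 genes and below 0 for 6, with a median of -0.20 beside 0.00 over all genes. This median has no firm direction, since it was 0.13 without amisulpride replicate 3, 0.028 with weights per library and -0.42 without amisulpride replicate 1. Fos and Fosb had the highest estimates and Jund the lowest. The values below are normalised counts, namely read counts that the authors scaled by library and rounded, and each fold change is a difference of log2(normalised count + 1), so that changes of low genes are understated.

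**Figure D1:**
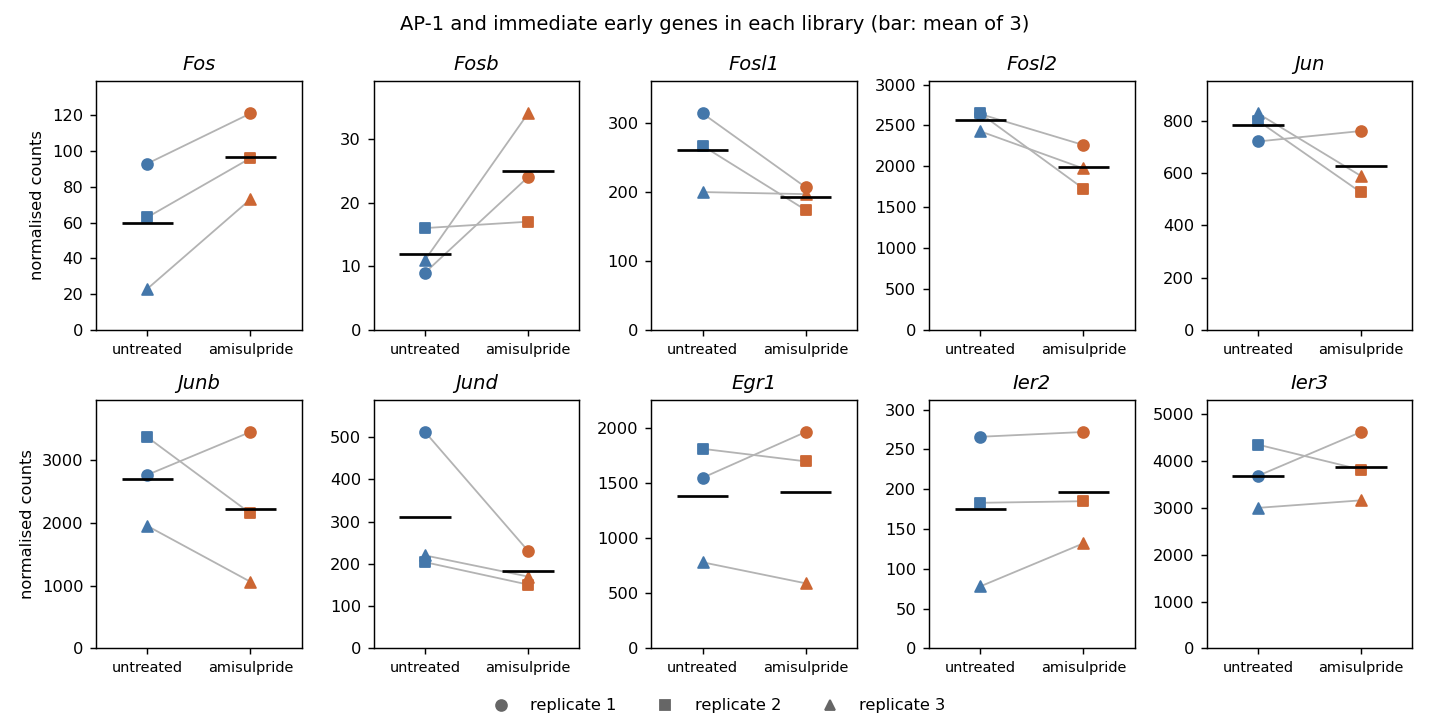
Normalised counts (linear axis from 0, own scale in each panel) of the 10 genes in the 3 untreated and 3 amisulpride libraries, with grey lines joining libraries of the same replicate number and bars at the mean of 3. The groups separate for Fosb and Fosl2 alone, and replicate 3 is the lowest library of both groups for Fos, Junb, Egr1, Ier2 and Ier3.

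Among the Fos family, Fos (chr12:85473890-85477273), the founding member and a strong activator, was at 93, 63 and 23 normalised counts in untreated replicates 1, 2 and 3. With amisulpride it was at 121, 96 and 73. Each treated library was higher than the untreated one of its number, but the groups overlapped, since amisulpride replicate 3 lay below untreated replicate 1. The log2 fold change was 0.87 ± 0.45 (SE, n = 3 per group, 95% interval -0.13 to 1.86, limma adjusted p = 0.524). Fosb (chr7:19302696-19310051), a close relative of Fos with a truncated splice form known from the brain, was at 9, 16 and 11 untreated and at 24, 17 and 34 with amisulpride. All treated values lay above all untreated ones, by 1 normalised count at the nearest pair. Its log2 fold change was 0.98 ± 0.45 (SE, n = 3 per group, 95% interval -0.01 to 1.98, limma adjusted p = 0.465). Single libraries decided both results. Fos passed the study thresholds without untreated replicate 1 (1.29) or amisulpride replicate 3 (1.05), and Fosb without untreated replicate 2 (1.19) or amisulpride replicate 2 (1.22). In these settings, in that order, 563, 774, 719 and 730 of all genes passed. Without untreated replicate 3 the log2 fold change of Fos fell to 0.30, and without amisulpride replicate 3 that of Fosb fell to 0.74. The values of Fosb are low, since 3 reads corresponded to 2.50 to 5.37 normalised counts in these libraries.

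Fosl1 (chr19:5447703-5455945) and Fosl2 (chr5:32135801-32157842) encode FRA1 and FRA2, which lack the strong activation domain of Fos and stay present longer after a stimulus. Fosl1 was at 314, 267 and 200 normalised counts in untreated replicates 1 to 3 and at 207, 174 and 197 in the treated ones. Its groups overlapped at untreated replicate 3, with a log2 fold change of -0.41 ± 0.26 (SE, n = 3 per group, limma adjusted p = 0.601). Fosl2 was at 2639, 2646 and 2428 untreated and at 2261, 1728 and 1974 with amisulpride. Every treated value lay below every untreated one, and the log2 fold change was -0.38 ± 0.24 (SE, n = 3 per group, 95% interval -0.90 to 0.14, limma adjusted p = 0.607). Fosb and Fosl2 were thus the 2 of 10 genes whose groups did not overlap, against 16.5% of all genes tested.

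Among the Jun family, Jun (chr4:95049034-95052222), the partner that pairs with all Fos proteins, was at 721, 800 and 828 normalised counts untreated and at 761, 526 and 589 with amisulpride. Amisulpride replicate 1 lay within the untreated range and the other 2 below it, with a log2 fold change of -0.34 ± 0.24 (SE, n = 3 per group, limma adjusted p = 0.652). Junb (chr8:84974484-84978718), a weaker activator that can oppose Jun, was at 2767, 3367 and 1952 untreated and at 3450, 2154 and 1063 treated. The treated group held both the highest and the lowest of the 6 values. Its log2 fold change of -0.40 ± 0.40 (SE, n = 3 per group, limma adjusted p = 0.754) became 0.05 without amisulpride replicate 3. Jund (chr8:70698949-70700616), the most constantly expressed Jun gene in most tissues, was at 512, 204 and 220 untreated and at 231, 151 and 170 treated. Each treated library was below the untreated one of its number, and untreated replicate 1 stood above the other 5. The log2 fold change of Jund was -0.65 ± 0.36 (SE, n = 3 per group, 95% interval -1.43 to 0.13, limma adjusted p = 0.545).

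Egr1, on chromosome 18, encodes a zinc finger factor induced through serum response factor. It was at 1552, 1815 and 783 normalised counts untreated and at 1968, 1701 and 592 with amisulpride. Replicate 3 was the low library in both groups, and the groups overlapped throughout. The log2 fold change was -0.05 ± 0.45 (SE, n = 3 per group, 95% interval -1.04 to 0.94, limma adjusted p = 0.977), so a change of 2-fold in either direction lay near the ends of the interval. Ier2 (chr8:84661331-84662852), a nuclear immediate early gene, was at 266, 183 and 78 untreated and at 272, 185 and 132 treated, a log2 fold change of 0.27 ± 0.43 (SE, n = 3 per group, limma adjusted p = 0.852). Ier3 (chr17:35821684-35822923), a stress-inducible gene linked to cell survival and NF-κB signalling, was at 3682, 4346 and 2998 untreated and at 4616, 3812 and 3158 treated. Its estimate was 0.07 ± 0.27 (SE, n = 3 per group, 95% interval -0.52 to 0.67, limma adjusted p = 0.946). Both Ier genes had treated and untreated values interleaved. The directions of Egr1, Ier2 and Ier3 turned in 1 or more of the other settings tried.

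**Figure D2:**
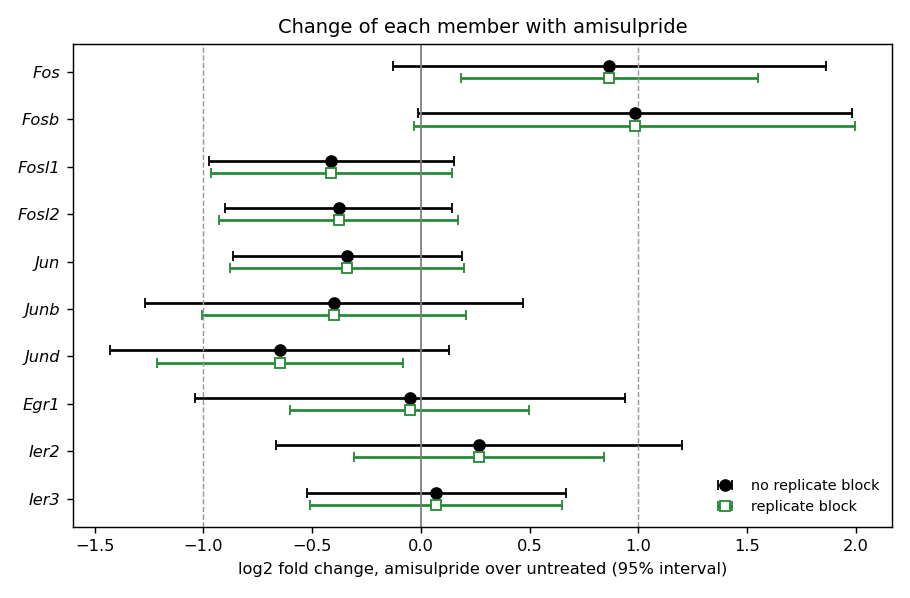
Log2 fold change of each gene (amisulpride over untreated, n = 3 per group) with its 95% interval from limma, without (black circles) and with (green squares) the replicate number as a block, and dashed lines at -1 and 1. Without the block all 10 intervals include 0, and with it those of Fos (0.19 to 1.55) and Jund (-1.21 to -0.08) do not.

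Libraries of the same replicate number deviated together over all genes, so the comparison was also made with the replicate number as a block. In this paired fit Fos and Jund had an unadjusted limma p under 0.05, which was 2 of 10 genes against 14.6% of all genes. After adjustment over all genes with limma, 0 of 10 passed, with adjusted p = 0.201 for Fos and 0.261 for Jund, against 2.08% of genes. None passed the study thresholds under the block either, against 6.61% of genes. Within replicate numbers 1, 2 and 3, the log2 difference of Fos was 0.38, 0.60 and 1.62, and that of Jund was -1.14, -0.43 and -0.37. The difference of Fos was thus widest in replicate 3, where the untreated value was lowest, and that of Jund in replicate 1, where the untreated value was highest.

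The replicate number itself was then examined, a comparison chosen after the values had been seen. In the fit with treatment and replicate number as terms, the number had an unadjusted limma p under 0.05 for 5 of 10 genes, against 11.7% of all genes. They were Egr1, Ier2, Fos, Junb and Jund. After limma adjustment over all genes 0 of 10 passed, against 0.349%, with adjusted p = 0.0811 for Egr1, 0.148 for Ier2 and 0.259 to 0.317 for the other three. The count was 3 without untreated replicate 1, against 7.68% of all genes in that setting, and 4 without untreated replicate 3, against 25.6%. Without any other single library it was 4 or 5, against 6.94% to 11.3%. Replicate 3 was the lowest library in both groups for 5 of 10 genes, against 13.4% of all genes. Its level lay below the mean of numbers 1 and 2 by 2.57-fold for Egr1, 2.18-fold for Fos and for Ier2, 2.0-fold for Junb and 1.33-fold for Ier3. Jund had another pattern, with number 1 the highest in both groups.

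The replicate number held 94.5% of the sum of squares of the log2 values of Egr1, 87.5% for Ier2, 75.5% for Ier3 and 68.2% for Junb, beside a median of 39.5% over all genes. For Fosl2, Fosb, Fosl1 and Jun the larger part went with treatment, at 71.6%, 65.5%, 50.6% and 50.3%, beside a median of 17.6% over all genes. The replicate number has more levels than treatment and so tends to hold the larger part by construction. Each share is therefore best read against its own median. Among 45 other immediate early genes the number had an unadjusted limma p under 0.05 for 11, against 11.7% of all genes, and 1 passed adjustment, against 0.349%. That gene was Zfp36, which encodes a protein that speeds the decay of transcripts rich in AU. Zfp36 was at 396, 416 and 108 normalised counts untreated and at 533, 434 and 123 treated (limma adjusted p = 0.0054 for the number), with replicate 3 low in both groups. Its limma adjusted p was 0.134 without untreated replicate 1, 0.222 without amisulpride replicate 1 and under 0.05 without any other library. Dusp1, a phosphatase that switches off MAP kinases, was at 623, 731 and 356 untreated and at 782, 468 and 231 treated, again lowest in replicate 3 (limma adjusted p = 0.161 for the number). Nfkbia (2162, 2025 and 1566 untreated, 2096, 1401 and 655 treated) was also lowest in replicate 3 of both groups. So were Nfkbiz (95, 153 and 82 untreated, 111, 185 and 54 treated) and Dusp5 (29, 15 and 14 untreated, 52, 19 and 16 treated). The remaining genes of these 11 had other orders. Klf6 (213, 282 and 350 untreated, 278, 264 and 603 treated) and Errfi1 (108, 82 and 131 untreated, 52, 44 and 149 treated) were highest in replicate 3. Dusp2, Ptgs2 and Csrnp1 were lowest in replicate 2, and Nr4a1 was lowest in replicate 3 of the untreated group only. What replicate 3 had in common in the 2 groups is not stated in the labels, and the part of handling, harvest time or cell stock in this spread was not tested.

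**Figure D3:**
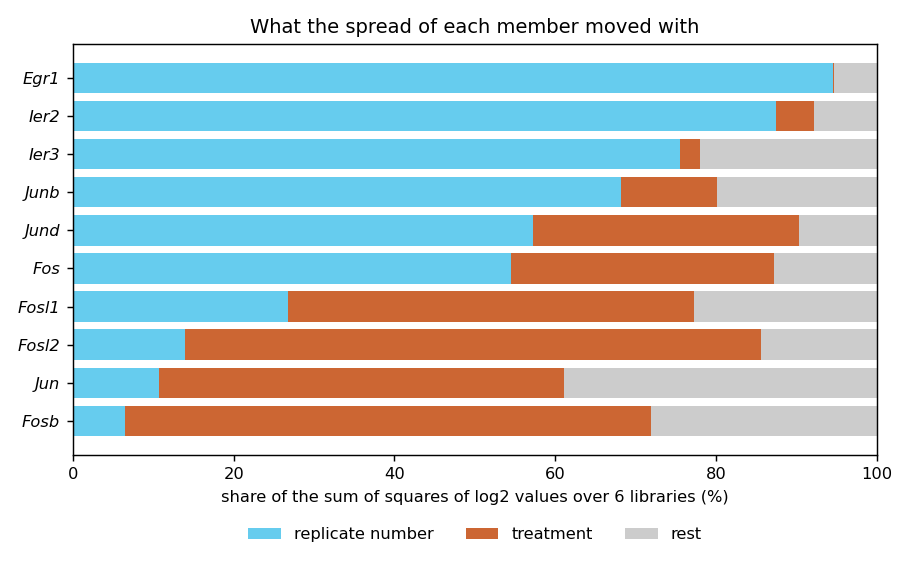
Share (percent) of the sum of squares of log2(normalised count + 1) over the 6 libraries that went with the replicate number, with treatment and with neither, for each gene. The replicate number holds over 50% for Egr1, Ier2, Ier3, Junb, Jund and Fos, and treatment over 50% for Fosl2, Fosb, Fosl1 and Jun. The number has more levels than treatment, so these shares are unequal by construction.

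The AU-rich pentamer ATTTA, by which many short-lived transcripts are marked, was counted in the 3′ untranslated regions (GENCODE vM21, GRCm38). Ier3 held 5 copies (8.16 per kb, percentile 98.1 of 19361 coding genes), Fos held 4 (4.91 per kb, percentile 91.7), Junb 2 (4.12 per kb, percentile 87.6) and Jun 4 (3.24 per kb, percentile 80.0). Ier2 held 0, and Fosb held 1 in a longer region (0.47 per kb). The median over coding genes was 1.33 per kb. Egr1 held 2 copies (1.65 per kb), Jund 1 (1.88 per kb) and Fosl1 1 (1.57 per kb). Fosl2 held the most copies of the set, 8 in a region of 4653 bases (1.72 per kb).

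To describe the make-up of each family, every member was expressed as a percentage of its family's summed normalised counts. Fosl2 held 88.7% ± 2.42 (SD, n = 3) of the Fos family in untreated SFs and 86.3% ± 0.49 (SD, n = 3) in treated ones. Fos held 3.04%, 2.11% and 0.86% of the family in untreated replicates 1 to 3 and 4.63%, 4.76% and 3.20% in treated ones, a mean of 2.0% ± 1.09 against 4.20% ± 0.86 (SD, n = 3). Fosb held 0.41% ± 0.12 against 1.08% ± 0.36 (SD, n = 3). The treated shares of Fos and of Fosb lay above all untreated ones. A share also rises when the rest of the family falls. Fosl2 made up most of each sum and was lower in every treated library, and the counts of Fos themselves overlapped between the groups. By a two-sided exact permutation test this gave p = 0.1 for each, the smallest that 3 against 3 libraries allow, and 0.35 after adjustment over the 7 shares. The share of Fosl1 was 8.91% ± 1.38 untreated and 8.40% ± 0.42 treated (SD, n = 3, exact permutation p = 0.7).

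In the Jun family, Junb held 70.4% ± 6.08 untreated and 70.7% ± 10.7 treated (SD, n = 3, exact permutation p = 0.9). Jun held 21.3% ± 5.45 and 22.7% ± 8.39 (SD, n = 3, exact permutation p = 0.8), and Jund 8.27% ± 4.15 and 6.62% ± 2.35 (SD, n = 3, exact permutation p = 0.7). In replicate 3, where Junb was low, Jun reached 27.6% of the family untreated and 32.3% treated, against 17.1% to 18.6% in the other 4 libraries. On levels per length the order was Fosl2, Fosl1, Fos, Fosb in the one family and Junb, Jun, Jund in the other, in both groups. The summed Fos family was 2903 ± 211 normalised counts untreated and 2302 ± 299.7 treated (SD, n = 3, exact permutation p = 0.1), and the summed Jun family 3790 ± 709 and 3032 ± 1321 (SD, n = 3, exact permutation p = 0.5).

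The other genes of the pathway were taken from 5 lists. Of the bZIP genes that can pair with AP-1 proteins, 18 of 23 were tested. Of these, 2 passed the study thresholds upwards and 0 downwards (11.1% beside 5.70% of all genes), with a median log2 fold change of 0.14. Atf3, a stress-induced repressor that dimerises with Jun proteins, was at 7, 8 and 16 normalised counts untreated and at 32, 32 and 27 treated. Its log2 fold change was 1.55 ± 0.45 (SE, n = 3 per group, limma adjusted p = 0.208). Ddit3, which encodes the stress factor CHOP, was at 253, 221 and 214 untreated and at 480, 695 and 306 treated, a log2 fold change of 1.03 ± 0.30 (SE, n = 3 per group, limma adjusted p = 0.212). For Atf3 and Ddit3 every treated value lay above every untreated one, but neither gene passed adjustment over all genes. Ddit3 fell short of the fold threshold without untreated replicate 3 (0.98) and without amisulpride replicate 2 (0.74), and without amisulpride replicate 3 it had a limma adjusted p of 0.0271.

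Of the other immediate early genes, 45 of 50 were tested, with 3 past the study thresholds upwards and 1 downwards (8.89% beside 5.70% of all genes). The median was 0.08. The 3 higher ones were Gadd45g and Gadd45b, which encode growth arrest proteins that activate stress kinases (log2 fold changes of 1.11 ± 0.31 and 1.10 ± 0.31), and Ctgf, a matricellular growth factor gene (1.11 ± 0.38, SE, n = 3 per group). None of the 3 passed limma adjustment over all genes, with adjusted p between 0.190 and 0.281. Each fell short of the fold threshold without 1 or more single libraries: Gadd45g without amisulpride replicate 3 (0.78) or untreated replicate 3 (0.99), Gadd45b without untreated replicate 1 (0.88) or amisulpride replicate 2 (0.89), and Ctgf without amisulpride replicate 3 (0.70). The lower one was Ptgs2, which encodes cyclooxygenase-2 and is also an AP-1 target. Ptgs2 was at 719, 411 and 434 normalised counts untreated and at 197, 78 and 191 treated, with every treated value below the untreated ones. Its log2 fold change was -1.81 ± 0.37 (SE, n = 3 per group, limma adjusted p = 0.0761), and the adjusted p was 0.00209 with the replicate block. Under the block 3 of the list passed the study thresholds upwards and 3 downwards, against 6.61% of all genes. Without amisulpride replicate 1, 7 in all passed, and over all genes the calls also rose, to 1000 from 719.

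Upstream kinases and serum response factors had 38 of 42 genes tested and a median of -0.11. The share past the study thresholds was 2.63% beside 5.70% of all genes. The 1 gene past the study thresholds was Mapk13, which encodes the p38δ MAP kinase, at 80, 52 and 41 normalised counts untreated and 43, 24 and 14 treated (log2 fold change -1.15 ± 0.44, SE, n = 3 per group, limma adjusted p = 0.350). Mapk13 did not pass without untreated replicate 1 (-0.89) or amisulpride replicate 3 (-0.77), nor with weights per library (-0.82). Under the block 1 gene of the list passed in each direction, against 6.61% of all genes. Of the regulators of AP-1 and EGR1 proteins, 20 of 21 were tested and 0 passed, against 5.70% of all genes, with a median of -0.19. The 3 with the lowest p, which did not pass, were Nab1 (-0.72 ± 0.28) and Nab2 (0.58 ± 0.30), both corepressors of EGR proteins, and Rfwd2 (-0.61 ± 0.26, SE, n = 3 per group), a ubiquitin ligase that marks Jun for degradation. Their limma adjusted p lay between 0.367 and 0.516.

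**Figure D4:**
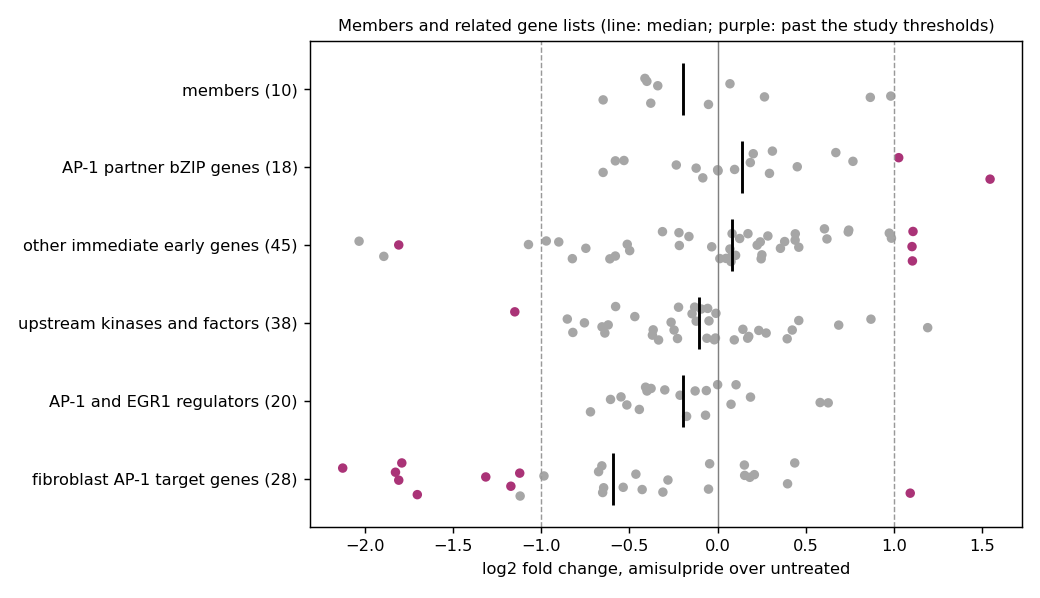
Log2 fold change (amisulpride over untreated) of each tested gene of the AP-1 and immediate early set (members) and of the 5 pathway lists, with the number tested in brackets, black lines at the median, dashed lines at -1 and 1 and purple for genes past the study thresholds. The members have no purple point, and 8 of the 9 purple points of the AP-1 target genes lie below -1.

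Genes known to be driven by AP-1 in fibroblasts formed the last list. Of 28 tested out of 32, 1 passed the study thresholds upwards and 8 downwards, which was 32.1% of the list beside 5.70% of all genes. Since the list was chosen with earlier results of these data known, this share is a description and no test. The median log2 fold change was -0.59. Without amisulpride replicate 3, 7 of the list passed, and 774 of all genes did. Spp1, which encodes osteopontin, was at 3349, 4630 and 4912 normalised counts untreated and at 791, 862 and 1339 treated. It fell by 2.13 ± 0.28 on the log2 scale (SE, n = 3 per group, limma adjusted p = 0.013) and was the 1 gene of the list to pass adjustment. Leaving out single libraries, its log2 fold change stayed between -2.36 and -1.98, and its limma adjusted p was 0.00328 without amisulpride replicate 3 and 0.0546 to 0.156 without any other library. Mmp3, or stromelysin-1, was at 4166, 5120 and 2530 untreated and at 666, 1118 and 1745 treated, a log2 fold change of -1.79 ± 0.37 (SE, n = 3 per group, limma adjusted p = 0.0764). For both genes the highest treated value was below the lowest untreated one.

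Further genes past the study thresholds were, besides Ptgs2, the collagenase gene Mmp13 (-1.31 ± 0.42), the urokinase receptor gene Plaur (-1.17 ± 0.29) and the monocyte chemokine gene Ccl2 (-1.12 ± 0.30, SE, n = 3 per group), with limma adjusted p between 0.138 and 0.254. Outside the naming rule, and named after their values were seen, were the gelatinase gene Mmp9 (-1.70 ± 0.56) and, upwards, the activin inhibitor gene Fst (1.09 ± 0.40, SE, n = 3 per group). Leaving out single libraries, Spp1, Ptgs2, Mmp3 and Plaur passed the study thresholds each time. Ccl2 did not pass without untreated replicate 2 or amisulpride replicate 3, Mmp13 without untreated replicate 2 or amisulpride replicate 1, Mmp9 without untreated replicate 1 or amisulpride replicate 2, and Fst in 4 of the 6 cases, namely without untreated replicate 1 or 3 or amisulpride replicate 2 or 3. With the replicate block 5 of the 28 had a limma adjusted p under 0.05: Spp1 (0.00053), Ptgs2 (0.00209), Mmp9 (0.00371), Mmp3 (0.0091) and Mmp13 (0.0105). Over all genes this share was 2.08%. Many of these genes also respond to NF-κB and other factors, and no AP-1 binding was measured.

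The labelled cell type was checked against markers. All 15 SF markers passed the filter on low values, among them Col1a1, Pdgfra, Pdpn and Prg4, with summed levels of 48513 to 65629 normalised counts untreated and 56428 to 96699 treated. The log2 fold change was above 0 for 9 of the 15 and below 0 for 6, Pdpn (-0.67) and Prg4 (-0.92) among the latter, and none passed the study thresholds. Of 15 myeloid markers 13 passed the filter, with sums of 2470 to 4238 untreated and 2377 to 4241 treated, although CD45+ cells had been depleted. Of these 13, 6 had a log2 fold change above 0 and 7 below, with a median of -0.14. Ptprc, the CD45 gene, was at 12 to 38 untreated and 5 to 23 treated, whereas the macrophage gene Adgre1 was at 14 to 39 untreated and 32 to 59 treated. Cd14 and Csf1r (15.4% of the 13 beside 5.70% of all genes) passed the study thresholds downwards. Csf1r did not pass without untreated replicate 1, 2 or 3 or amisulpride replicate 1 or 2. Some target genes, Spp1 and Mmp9 among them, are also expressed by macrophages, and the part of these cells in the lower values was not tested. In bulk libraries fewer cells of a type and less RNA per cell cannot be told apart. Of 8 endothelial markers 0 passed the filter, of 8 lymphocyte markers 1 (Cd3d), of 10 mast cell and granulocyte markers 1 (Elane), of 8 muscle markers 1 (Acta1) and of 7 mural cell markers 3. Cdh5, Cd3e and Cpa3, which define endothelial cells, T cells and mast cells, were at 0 in all 6 libraries. On the same lists, however, Elane was at 875 to 1610 normalised counts and Cd3d at 11 to 33, and the endothelial markers summed to 2 to 17. Of 10 chondrocyte and bone markers 4 passed, Acp5 being past the study thresholds downwards, and of 6 Schwann cell markers 4, with Mbp past them downwards, but not without untreated replicate 1 or 3 or amisulpride replicate 2. Among the mural cell markers Mcam was past them downwards.

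Approximate depths were 2.52 to 4.71 M reads, with the shallowest library, amisulpride replicate 3, standing apart on the first principal component (37.1% of the variance). Without that library the log2 fold change of Egr1 was 0.49. According to GENCODE vM21, 4 members overlap a gene on the opposite strand: Fosl1 (Ccdc85b, 2766 bases), Jun (the antisense gene Junos, 689 bases), Junb (Prdx2, 351 bases) and Jund (the antisense gene Gm11175, 919 bases). The sources used here do not state whether reads were counted by strand, so reads of these neighbours may be included in the values of the 4 genes.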

How the data were processed

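Libraries were prepared from RNA of integrity above 7 with a 3′ end kit (QuantSeq) and sequenced on an Ion Proton instrument, so reads lie near transcript ends. The authors mapped reads to mm10 with TopHat2, then unmapped reads with Bowtie2, and counted them per gene with GenomicRanges. Their methods then state that genes without reads were removed, counts normalised and differential expression tested with DESeq, all through metaseqr. Genes at 0 in all 6 libraries, such as Cdh5, nevertheless remain in the deposited table. Versions are not given in the sources used here. The deposited values are a score, since the authors had divided the read counts of each library by a factor and rounded them to whole numbers; they are called normalised counts here. Another 6 columns per library on other scales, and the authors' own fold changes and p-values (4 columns), were not used as levels or in tests. For the levels per length, gene length was taken as the normalised counts divided by the deposited normalised counts per length. Because the scale is not raw, no count model was fitted.

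Treatment was tested with limma 3.58.1 (R 4.3.3, trend, empirical Bayes, prior degrees of freedom 7.31) on log2(normalised count + 1), two-sided, for genes that reached 10 in 3 or more libraries, with Benjamini-Hochberg adjustment over all 12614. The script was tested on simulated data. Shares and sums were compared by exact permutation. Replicates are described as biological, but the labels do not tie libraries to animals, so p-values measure the spread between these samples. Replicate numbers were taken to pair the libraries because deviations of same-numbered libraries from their group means correlated over genes (0.229, 0.24 and 0.201). The other pairs (-0.149 to -0.078) add no separate evidence, since centring on group means makes them negative on average once the same-numbered ones are positive. The labels do not say what the number marks. Depth was estimated from the step between low values, and that of untreated replicate 1 (3.97 M reads) is uncertain; floors of 3 reads cover counting error only.

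The members and lists were chosen with earlier results of these data known. All 10 members were described. From each list the genes past the study thresholds were named, up to the 6 with the lowest p, or else the 3 with the lowest p. Alternatives were a pseudocount of 5, no filter, quantile normalisation, median ratio rescaling, weights per library, the replicate block, leaving out each library and, for family shares, levels per length. Promoters of Fosl1, Egr1 and Ier2 were not analysed here, and some genes of the lists, although counted, are not reported here by name.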

Additional observations from a re-analysis of the deposited data

How the results depend on the processing

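All of Fos, Fosb, Fosl1, Fosl2, Jun and Jund kept their direction under the 12 alternatives run for each. The log2 fold change of Fos ranged from 0.30 (without untreated replicate 3) to 1.29, and that of Jund from -0.89 to -0.23 (without untreated replicate 1). After quantile normalisation 1 member passed the study thresholds (Fosb, 1.01) and with weights per library 1 (Fos, 1.19), against 738 and 782 of all genes. Leaving out single libraries gave 0 to 1: Fos passed at 1.29 once untreated replicate 1 was left out and at 1.05 once amisulpride replicate 3 was, and Fosb at 1.19 and 1.22 with replicate 2 of the untreated or of the treated group left out. Leaving out single libraries, the log2 fold change ranged from -0.80 to 0.052 for Junb (above 0 without amisulpride replicate 3), from -0.42 to 0.49 for Egr1 (above 0 at 0.075, 0.19 and 0.49 without untreated replicate 1, untreated replicate 2 or amisulpride replicate 3), from -0.23 to 0.65 for Ier2 (below 0 without untreated replicate 3) and from -0.068 to 0.21 for Ier3 (below 0 without untreated replicate 3 or amisulpride replicate 1). Egr1 also turned to 0.36 with weights per library, and Ier3 to -0.061 when quantile normalised. No member passed adjustment in any of these settings.

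Over all genes, those past the study thresholds numbered 719, and 1313 without the filter. Those with a limma adjusted p under 0.05 numbered 36, and 57 with a pseudocount of 5, 57 without the filter, 66 when quantile normalised, 195 with library weights, and 0 to 120 leaving out single libraries (0 without untreated replicate 2 or 3, 120 without amisulpride replicate 3). With the replicate block, that is, with libraries paired by number, they numbered 263, and the block changed no call of a member at the study thresholds or after adjustment. With levels per length the difference in family share was 3.51 percentage points for Fos in place of 2.2 and -1.66 for Fosl1 in place of -0.50. The members with a replicate number term under 0.05 numbered 3 to 5 leaving out single libraries, beside 6.94% to 25.6% of all genes. Median ratio rescaling moved no count of members. The causes were not tested. The 3 libraries per group and the depth limit the precision, most for Fosb, whose untreated values of 9 to 16 lay nearest to the floors of 2.50 to 5.37 normalised counts.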
